A study of Bos indicus with 12 samples.

Results

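The comparison described here is that of estradiol cypionate (ECP) with no treatment at that time (CON) in the endometrium of cows that were later diagnosed pregnant. It holds 6 of the 12 libraries of the series, chosen by the pregnancy status that the sample labels give: the ECP cows D160, E1010 and X156 and the CON cows E0040, E0406 and E0819. All were multiparous, suckled, anestrous Nelore (Bos indicus) cows without a corpus luteum at the start. All 6 had received estradiol benzoate with an intravaginal progesterone (P4) device, cloprostenol when the device was removed, and buserelin with timed insemination, so the CON cows were also exposed to a shorter estradiol ester earlier in the protocol. The ECP cows received 1 mg of ECP by intramuscular injection at device removal, and for the CON cows the labels name no vehicle. RNA was sequenced from a single transcervical biopsy of each cow taken on D 6 after insemination, once a new corpus luteum had formed. By the methods of the study, ECP cows were taken only from those that displayed estrus and CON cows only from those that did not, so treatment and display of estrus cannot be told apart. The cows were also selected for similar P4. Later pregnancy status was an outcome known only after the biopsy, and a biopsy is a mixture of cell types, so that fewer cells of a type and less RNA per cell cannot be told apart in any value below.

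ECP is an esterified estradiol that is released slowly from the injection site. Estradiol acts on the endometrium mainly through nuclear estrogen receptors, drives growth of epithelium and stroma around estrus, and induces progesterone receptors. Progesterone from the new corpus luteum then turns the endometrium to secretion, and on D 6 the embryo of a cow that has conceived is still small and only reaching, or newly within, the uterine lumen. A difference on D 6 is therefore read several days after the estradiol exposure, under progesterone.

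P4 on D 6 was 4.07, 4.09 and 3.77 ng/mL in the ECP cows D160, E1010 and X156, against 3.85, 3.86 and 3.36 ng/mL in the CON cows E0040, E0406 and E0819. The groups overlapped, and the difference of 0.287 ng/mL was not past the spread between cows (two-sided exact permutation test, p = 0.3, where 3 cows against 3 allow no p below 0.1). The study had selected its cows for similar P4, which favours a small difference. Total counts per library were 8637917 to 15015055 in ECP and 12050824 to 12765968 in CON, and E1010 had the lowest. The libraries fall into a higher and a lower class by the share of reads that mapped, which the supplement of the study gives for each cow. ECP held 2 higher libraries (D160 and X156) and 1 lower (E1010), and CON held 1 higher (E0819) and 2 lower (E0040 and E0406). Over all genes tested, the cows of a treatment did not form a cluster. Spearman correlations of log2 CPM, the counts scaled to library size, between the 6 libraries were 0.9553 to 0.9783, with a median of 0.9699 between cows of the same treatment and 0.9717 between cows of different treatments. The first principal component held 28.7% of the variance and set X156 apart at -59.0, while the other cows lay between -5.96 and 37.9. The second held 23.9% and set the CON cow E0040 apart at 52.8, with the next cow, D160, at 13.6. The label endometrium could not be checked against defining markers. The symbols at hand match none of the prepared epithelial, stromal, endothelial, smooth muscle and blood markers, and 3 of 8 leukocyte markers (37.5%).

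**Figure D1:**
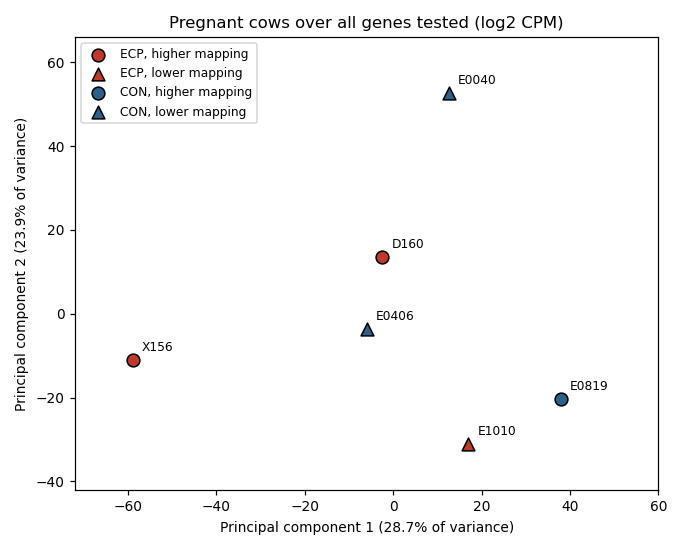
Principal components 1 and 2 of log2 CPM over all genes tested, 1 point per cow, with 3 ECP cows in red and 3 CON cows in blue and with circles for higher and triangles for lower mapping libraries. Component 1 separates X156 (-59.0) and component 2 E0040 (52.8) from the other cows, and neither component separates ECP from CON.

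Across the transcriptome, no gene passed the test between ECP and CON in these pregnant cows. The test was edgeR's quasi-likelihood test on 15161 genes with a mean normalized count above 5, where a normalized count is the read count divided by the library's size factor, and a gene was called where the p adjusted by Benjamini-Hochberg reached 0.10 or less. It called 0 genes (0%), with a lowest adjusted p of 0.752. At an unadjusted p under 0.05 it gave 996 genes (6.57%), 501 higher in ECP (3.3%) and 495 lower (3.26%), beside the 758 that a uniform spread of p-values gives. DESeq2, the tool the study names, called 40 genes (0.264%), 20 higher and 20 lower, and limma voom called 0 (lowest adjusted p = 0.782). The calls below thus rest on DESeq2 alone. On counts simulated for this design DESeq2 called more unchanged genes than edgeR or limma voom did. A larger share of its calls was false than its threshold allows. Those counts came from a single draw with the spread estimated by edgeR, so the share of false calls among these 40 is not known. DESeq2's adjusted p-values below are therefore given as a ranking, and a gene that it called is not shown to have changed. Most log2 fold changes were small: 83.3% of the genes lay within 0.5 of 0, the median of the absolute values was 0.18, and 50.3% lay above 0. A log2 fold change beyond 1 was found for 770 genes (5.08%), 447 above 1 and 323 below -1. For 302 of these 770 the fold change shrank to under 50% or changed sign when 1 cow was left out, most often X156 (105 genes), then E0819 (57) and E0040 (50). The 3 ECP cows lay all above the 3 CON cows for 712 genes (4.7%) and all below for 894 (5.9%), together 1606 genes (10.6%). With no difference, 3 cows against 3 would lie fully apart for a share of about 0.1 of genes, so 10.6% is close to that.

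Gene symbols were at hand only for genes that the study lists as differing between all 6 ECP and all 6 CON cows, pregnant or not. The list holds 135 gene IDs, of which 122 carry a symbol used here. Since the pregnant cows are among the 12 on which that list was made, the direction of a listed gene in them is no independent evidence, and the values that follow are a description of how the listed genes looked in the pregnant cows. Of the 135, 73 were higher and 62 lower in the pregnant ECP cows, 106 had an unadjusted p under 0.05 from edgeR, and the groups did not overlap for 110 (58 above, 52 below), beside the 10.6% of all genes given above. The median absolute log2 fold change was 0.52, against 0.18 over all genes. DESeq2 called 10 of the 135, of which 9 carry a symbol used here, while the other 30 of its 40 calls were not listed. Below, counts per cow are in the order D160, E1010 and X156 for ECP and E0040, E0406 and E0819 for CON, and fold changes are those of edgeR, ECP over CON, on the log2 scale with the standard error (SE). For each gene named, edgeR's adjusted p was 0.752 or more.

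Among listed genes higher in ECP, those of lowest p included membrane traffic and enzyme genes. STXBP4, a syntaxin-binding protein of vesicle traffic, had 118, 131 and 151 normalized counts in ECP, against 59.1, 80.7 and 60.4 in CON (log2 fold change 1.00, SE 0.23, DESeq2 adjusted p = 0.0524). CDA, the cytidine deaminase of pyrimidine salvage, had 81.2, 66.8 and 92.5 in ECP, against 34.2, 21.3 and 16.6 in CON (log2 fold change 1.75, SE 0.43, DESeq2 adjusted p = 0.0612). In both genes the lowest ECP cow stood well above the highest CON cow, and CDA had the larger step of the pair. ARMC12, an armadillo repeat gene, had 86.0, 68.2 and 107 normalized counts in ECP, against 22.8, 32.5 and 29.2 in CON (log2 fold change 1.64, SE 0.37, DESeq2 adjusted p = 0.0552). TTC7A, a scaffold of the phosphatidylinositol 4-kinase at the plasma membrane, had 545, 609.6 and 949 in ECP, against 354, 321 and 328 in CON (log2 fold change 1.08, SE 0.25, DESeq2 adjusted p = 0.0592). X156 was the highest cow for both, and for TTC7A the log2 fold change was 0.79 without it. SCAMP1, a carrier protein of recycling vesicles, had 184, 160.1 and 163 in ECP, against 114, 91.9 and 81.8 in CON (log2 fold change 0.83, SE 0.19, DESeq2 adjusted p = 0.0605). PI15, a secreted peptidase inhibitor, had 998, 1039.7 and 759 in ECP, against 253, 523 and 364 in CON (2.46-fold higher, SE 0.35 on the log2 scale, DESeq2 adjusted p = 0.0933). These 6 passed DESeq2, with no overlap between the groups in any, beside 110 of all 135 listed genes and 10.6% of all genes. TRPM3, a calcium-permeable cation channel, and ST8SIA4, a polysialyltransferase, completed the 8 of lowest p but missed DESeq2's threshold (adjusted p = 0.102 each). TRPM3 had 451, 523 and 626 normalized counts in ECP, against 226, 258 and 214 in CON, and ST8SIA4 had 348, 356 and 449 in ECP, against 240.5, 239 and 261 in CON.

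Among listed genes lower in ECP, those of lowest p were led by ribosomal protein and respiration genes. RPL39, of the large ribosomal subunit, had 3134, 4077 and 3687 normalized counts in ECP, against 5112, 5591 and 6426 in CON (log2 fold change -0.64, SE 0.15, DESeq2 adjusted p = 0.0524). NDUFB3, a subunit of respiratory complex I, had 399, 391 and 396 in ECP, against 679.9, 578 and 509.6 in CON (log2 fold change -0.56, SE 0.14, DESeq2 adjusted p = 0.0743). RPS2, of the small ribosomal subunit, had 16802, 17098 and 17270.0 in ECP, against 21882, 21626 and 22320.4 in CON (log2 fold change -0.35, SE 0.11, DESeq2 adjusted p = 0.0768). The ECP cows lay close together for NDUFB3 and RPS2, and in RPS2 the CON cows did as well. These 3 passed DESeq2. As in 110 of all 135 listed genes, the groups of the other 5 of lowest p did not overlap, yet these 5 did not pass DESeq2. They were C28H10orf116 (log2 fold change -0.73, SE 0.21), the ubiquitin peptidase ZUFSP (-0.39, SE 0.12), ALOX5, the 5-lipoxygenase of leukotriene synthesis (-0.65, SE 0.20), RPS27 (-0.55, SE 0.18) and the zinc finger gene ZNF135 (-0.59, SE 0.19). C28H10orf116 had 477, 626 and 572 normalized counts in ECP, against 758, 1129 and 910.0 in CON. ALOX5 had 118, 97.4 and 88.8 in ECP, against 141, 174 and 167 in CON. In both, E0040 was the CON cow nearest to ECP. Counts of ribosomal protein genes are uncertain, since reads can also match processed pseudogenes.

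**Figure D2:**
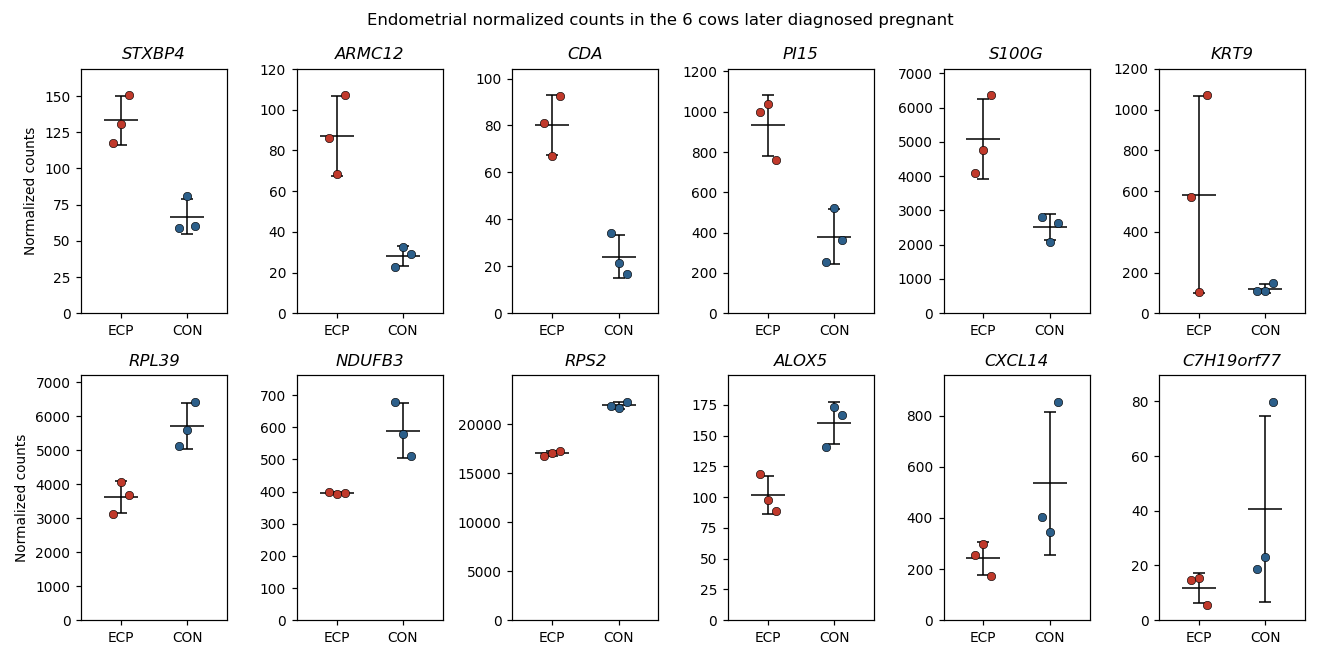
Normalized counts of 12 listed genes in the 3 ECP cows (red) and the 3 CON cows (blue) later diagnosed pregnant, 1 point per cow, with the mean and SD as bars and axes from 0. For STXBP4, ARMC12, CDA, PI15 and S100G the ECP cows lie above all CON cows and for RPL39, NDUFB3, RPS2, ALOX5, CXCL14 and C7H19orf77 below, while 1 ECP cow of KRT9 (103) lies below the lowest CON cow (108).

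The largest fold changes among listed genes with no overlap belonged partly to the genes above and partly to genes in which 1 cow weighed heavily. PM20D1, a secreted enzyme of N-acyl amino acids, had 394, 237 and 851 normalized counts in ECP, against 170.0, 215 and 171 in CON (log2 fold change 1.43, SE 0.50), and 0.78 without X156. CLIC5, an intracellular chloride channel protein, had 433, 241 and 516 in ECP, against 201, 217 and 161 in CON (log2 fold change 1.05, SE 0.29), and 0.81 without X156. In both genes E1010 stood close to the CON cows. C7H19orf77 had 14.6, 15.3 and 5.55 in ECP, against 18.7, 23.2 and 79.9 in CON (log2 fold change -1.77, SE 0.59). CXCL14, a chemokine, had 256, 299 and 173 in ECP, against 405, 345 and 855 in CON (log2 fold change -1.13, SE 0.44). Here E0819 was the cow far above the rest, and without it the log2 fold changes were -0.82 for C7H19orf77 and -0.62 for CXCL14. SAMSN1, an adaptor protein of lymphocytes, had 67.4, 66.8 and 57.4 in ECP, against 98.5, 129.9 and 114 in CON (log2 fold change -0.83, SE 0.27), and its fold change stayed between -0.93 and -0.73 whichever cow was left out. MGST1, a microsomal glutathione transferase, had 584, 868 and 746 in ECP, against 992, 1318 and 1353 in CON (log2 fold change -0.73, SE 0.31). KRT9, a type I keratin, had the largest fold change of the genes named here (log2 fold change 2.28, SE 0.67), yet its groups overlapped. It had 573, 103 and 1073 in ECP, against 108, 109 and 148 in CON, so D160 and X156 were high and E1010 was below every CON cow. Without X156 its log2 fold change was 1.49, and within the lower mapping libraries, where E1010 is the only ECP cow, it was -0.062.

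Several listed genes belong to hormone and calcium pathways. S100G, the calbindin-D9k of uterine epithelium, had 4089.8, 4766 and 6372 normalized counts in ECP, against 2808, 2081 and 2631 in CON (log2 fold change 1.03, SE 0.28, DESeq2 adjusted p = 0.115). It was high in all 3 ECP cows, and its fold change was between 0.83 and 1.17 with any cow left out. Of the 4 calcium genes grouped here, 3 were higher in ECP, beside 73 of all 135 listed genes. GRIA3, a glutamate receptor channel, had a log2 fold change of 0.89 (SE 0.33), with overlap because E1010 (219) was below E0040 (219.7). The kinase CAMK1 had -0.30 (SE 0.17) and overlapping groups. PAQR8 encodes a membrane progesterone receptor. It had 647, 338 and 354 in ECP, against 411, 265 and 257 in CON (log2 fold change 0.53, SE 0.32), with D160 the highest cow, and its log2 fold change without D160 was 0.17. PTCH1, the Hedgehog receptor, is given for a pair of gene IDs. ENSBTAG00000009903 had 999, 791 and 668 in ECP, against 615, 509 and 391 in CON, and ENSBTAG00000048213 had 304, 237 and 203 in ECP, against 149, 169 and 100.4 in CON. Their log2 fold changes were 0.71 (SE 0.27) and 0.84 (SE 0.34), the cows stood in nearly the same order in both, and neither passed DESeq2.

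Chromatin and transcription genes on the list were mostly higher in ECP. All 5 chromatin regulators were, beside 73 of all 135 listed genes, with a median log2 fold change of 0.61. For 4 of the 5 the groups did not overlap, a share close to that of all listed genes. EZH2, the methyltransferase of Polycomb repressive complex PRC2, had 236, 411 and 387 normalized counts in ECP, against 169, 227 and 221 in CON (log2 fold change 0.75, SE 0.26). ASXL2, a cofactor of the histone H2A deubiquitinase BAP1, had 372, 413 and 437 in ECP, against 299.5, 304 and 202 in CON (log2 fold change 0.61, SE 0.18). TET3, which oxidizes methylated cytosine, had 126, 118 and 96.2 in ECP, against 77.7, 84.5 and 44.8 in CON (log2 fold change 0.72, SE 0.28). In TET3 and ASXL2 the low CON cow was E0819, and without it the log2 fold changes were 0.49 and 0.44. ASXL1 had a log2 fold change of 0.31 (SE 0.10). Of 11 transcription factors and cofactors, 8 were higher and 3 lower, and the groups did not overlap for 9, a share close to that of all listed genes (110 of 135), beside 10.6% of all genes. RUNX2, a transcription factor of bone, had 1.17 (SE 0.47) with overlap, because E0819 (89.6) was above X156 (71.3), and its binding partner CBFB had 0.39 (SE 0.15) with none. The coactivator SUB1 was lower, at -0.31 (SE 0.11), and HIPK1, a nuclear kinase, was at 0.42 (SE 0.19) with overlap. CENPH, a kinetochore protein, had 147, 142 and 144 in ECP, against 113, 100.2 and 79.9 in CON (log2 fold change 0.57, SE 0.21), so the ECP cows were nearly equal. RGCC, a regulator of the cell cycle, had -0.83 (SE 0.31), with overlap because E0040 (94.3) was below D160 (107). No gene of these groups passed DESeq2.

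Genes of protein synthesis, respiration and splicing were lower in ECP without exception among the listed members, and by small steps. Of all 135 listed genes 62 were lower, and the groups did not overlap for 110, beside 10.6% of all genes. All 7 ribosome and translation genes were lower, with a median log2 fold change of -0.44 and a range from -0.64 for RPL39 to -0.17 for EEF1D, and in all 7 the groups did not overlap. RPS27 had 1851, 2305 and 2244 normalized counts in ECP, against 2864, 2704 and 3870.1 in CON, and RPL22 had 4119.9, 4441 and 5002 in ECP, against 5666, 5307 and 7820.1 in CON. E0819 was the highest cow for both, and without it their log2 fold changes were -0.38 and -0.27, in place of -0.55 and -0.46. EIF6, a ribosome assembly factor, and MRPS31, of the mitochondrial ribosome, moved little with any cow, at -0.26 (SE 0.09) and -0.44 (SE 0.15). All 5 genes of mitochondrial respiration and its chaperonin were lower, with a median of -0.30. ATP5F1 and ATP5J, of ATP synthase, had -0.24 (SE 0.10) and -0.31 (SE 0.13), and only ATP5J had overlapping groups, since X156 (1415) was just above E0819 (1413). IDH3B, of the citric acid cycle, had -0.30 (SE 0.12). The 4 splicing genes GEMIN7, SNRPD2, RBM48 and STRAP had log2 fold changes of -0.39 to -0.18, each with no overlap. SNRPD2, a Sm core protein, had 1254, 1063 and 1261 in ECP, against 1448, 1485 and 1496 in CON. The 2 glycolytic enzymes went opposite ways. HK2, a hexokinase, had 124, 184 and 90.7 in ECP, against 70.5, 64.0 and 27.3 in CON (2.47-fold higher, SE 0.48 on the log2 scale), while GPI, which acts one step later, had 2656, 2991 and 2459 in ECP, against 3990.5, 3730.3 and 3083 in CON (log2 fold change -0.40, SE 0.15). DESeq2 passed RPL39, RPS2 and NDUFB3 of these genes.

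Matrix, adhesion and leukocyte genes made up a further block. Of all 135 listed genes 73 were higher and 62 lower in ECP, and the groups by role were formed with earlier results of these data known. Of 8 matrix and peptidase genes 7 were higher in ECP, with a median log2 fold change of 0.75, and FAM20C, a kinase of secreted proteins, was lower (-0.36, SE 0.13). PEPD, or prolidase, had 6381, 5275 and 7272 normalized counts in ECP, against 4416, 3545 and 4069 in CON (log2 fold change 0.67, SE 0.21). ECM1, an extracellular matrix protein, had 208, 358 and 314 in ECP, against 179, 158 and 172 in CON (log2 fold change 0.80, SE 0.31). In ECM1, D160 was the ECP cow nearest to CON. For the member listed as ADAM9 the sources disagree on whether its ID is that gene, so its values are not given. CEACAM1, an epithelial adhesion molecule, had 3803, 3862 and 4309 in ECP, against 2451, 2985 and 2444 in CON (log2 fold change 0.61, SE 0.23), and MGAT5, which branches N-glycans, had 0.52 (SE 0.25). All 4 leukocyte genes were lower in ECP, with a median of -0.59. Beside ALOX5 and SAMSN1 these were the receptor CD244, at 21.1, 20.9 and 17.6 in ECP, against 34.2, 28.8 and 23.4 in CON (log2 fold change -0.52, SE 0.32), and the adhesion gene AMICA1, at -0.44 (SE 0.23), whose groups overlapped. The list is too short to tell a cell type, since defining leukocyte markers such as PTPRC are not among the symbols at hand. No gene of this block other than PI15 passed DESeq2.

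Of the remaining groups, signalling genes were higher in ECP for 9 of 10 members and vesicle genes for 6 of 8. Of all 135 listed genes 73 were higher and 62 lower. In the signalling group all 10 had groups that did not overlap, beside 110 of all 135 listed genes and 10.6% of all genes. The phosphodiesterase PDE8A had a log2 fold change of 0.37 (SE 0.13), and PIK3R3, which regulates phosphoinositide kinase, was at 0.22 (SE 0.13), with CXCL14 as the lower member. GABARAP of autophagy and the syntaxin STX4 were the lower vesicle genes, at -0.24 (SE 0.10) and -0.28 (SE 0.12). All 3 transport genes were higher, with SLC41A1, a magnesium transporter, at 170.4, 159 and 166 normalized counts in ECP, against 97.4, 132 and 136 in CON (log2 fold change 0.45, SE 0.18). Of 7 genes of small-molecule metabolism 5 were lower, among them CCBL2, a kynurenine aminotransferase (-0.52, SE 0.17). The cytoskeletal genes were 4 higher and 1 lower, and the lower, the myosin light chain MYL3, had low counts, at 5.68, 12.5 and 4.63 in ECP, against 25.9, 18.6 and 10.7 in CON (log2 fold change -1.30, SE 0.66). E1010 and E0819 crossed in MYL3, so the groups overlapped. The microtubule gene CAMSAP1 differed by only 0.23 (SE 0.09) but with narrow groups, at 979.6, 965 and 974 in ECP, against 808, 831 and 865 in CON.

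**Figure D3:**
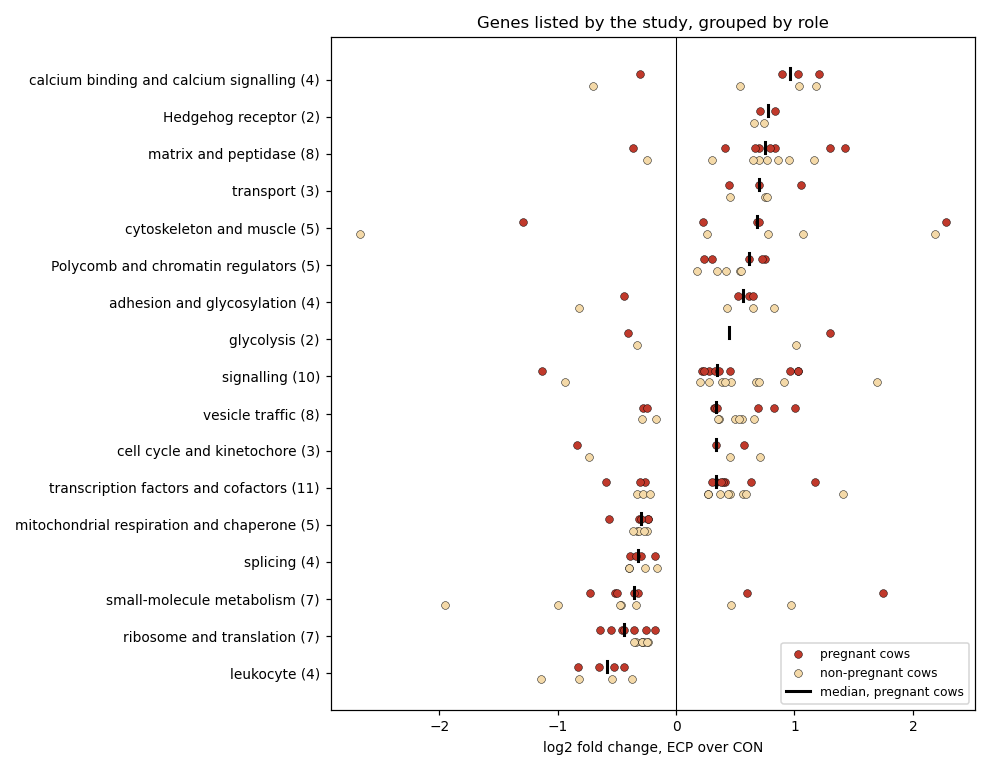
Log2 fold changes, ECP over CON, of listed genes grouped by role, with the number of gene IDs in brackets. Each red point is a gene in the pregnant cows, each pale point the same gene in the non-pregnant cows, and the black bar is the median in pregnant cows. Ribosome (-0.44), mitochondrial (-0.30), splicing and leukocyte (-0.59) members all lie below 0 and chromatin members (0.61) all above, in genes that the study chose on these cows and the non-pregnant ones together.

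Outside the list, some gene IDs without a symbol had lower p than any listed gene. ENSBTAG00000001865 had the lowest p of the pregnant comparison. It had 104, 48.7 and 84.2 normalized counts in ECP, against 361, 199.6 and 399 in CON (log2 fold change -1.99, SE 0.33, DESeq2 adjusted p = 6.62e-05). ENSBTAG00000013666 had 1006, 1099.5 and 1118 in ECP, against 1990.0, 1922 and 1466 in CON (log2 fold change -0.73, SE 0.15, DESeq2 adjusted p = 0.0229). All ECP cows were below all CON cows in both. ENSBTAG00000015044 had 548, 900.5 and 834 in ECP, against 414, 299 and 366 in CON (log2 fold change 1.09, SE 0.20, DESeq2 adjusted p = 0.00662), and ENSBTAG00000001826 had 499, 540.0 and 604 in ECP, against 266, 358 and 301 in CON (log2 fold change 0.84, SE 0.16, DESeq2 adjusted p = 0.00773). For these the ECP cows were all above the CON cows. Each of the 4 kept its direction within both mapping classes, which their choice by lowest p in these cows favours.

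The 6 cows that did not become pregnant share no animal with those above and show which differences were also seen there. Over all genes, fold changes in the pregnant and in the non-pregnant cows, each fitted alone, were nearly unrelated across genes (Pearson's r = 0.040, Spearman's coefficient = 0.106 over 15161 genes, which are not independent replicates), and 54.8% had the same sign. The size of the differences was alike, with a median absolute log2 fold change of 0.18 in each. Non-overlapping genes numbered 1606 (10.6%) in the pregnant and 2253 (14.9%) in the non-pregnant cows. Of these, 175 lay on the same side in both and 78 on opposite sides. The number that unrelated sets of cows would share was not computed, so these counts by themselves show no agreement. Among the 175, 72 were listed genes, which the study chose on both sets of cows together, and 103 were not listed. In the non-pregnant cows edgeR called 0 genes (lowest adjusted p = 0.71), with 1041 (6.87%) at an unadjusted p under 0.05, while DESeq2 called 59 and limma voom 0. All 135 listed genes had the same sign in both, which their choice on all 12 cows favours, and 74 of them (54.8%) had the larger fold change in the pregnant cows, beside 50.1% of all genes. Genes at p of at most 0.01 in an edgeR fit of the 6 pregnant cows alone numbered 104, of which 63 (60.6%) had the same sign in the non-pregnant cows. All 20 listed genes among them did, and 43 of the 84 unlisted (51.2%), beside 54.4% of all unlisted genes. Taking the listed genes out favours the opposite result, because those that moved alike in both were the ones listed. The share rests on single cows: it was 79.8% of 208 genes without E1010 and 44.2% of 154 without either D160 or E0406, sets that are not the same genes.

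**Figure D4:**
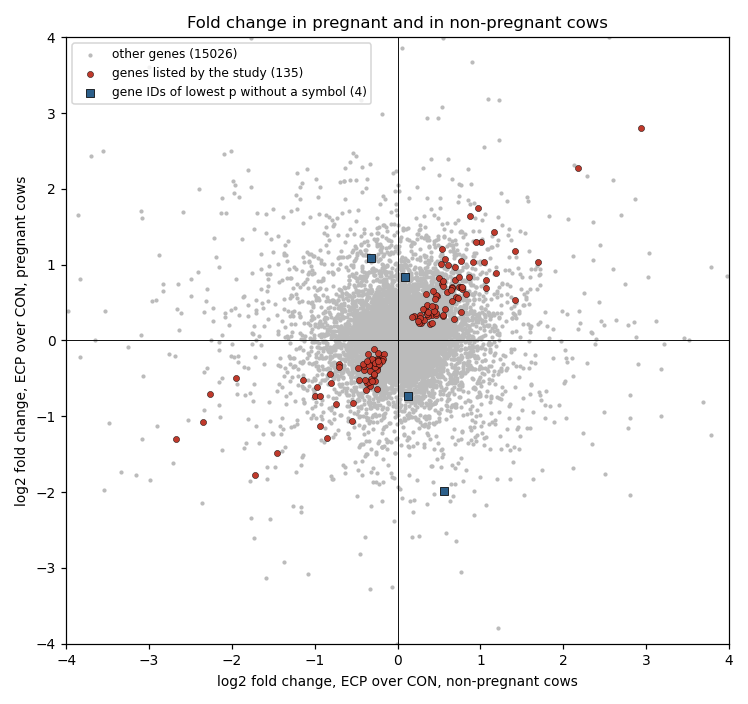
Log2 fold change, ECP over CON, of each gene tested, in pregnant cows (vertical) against non-pregnant cows (horizontal), with the 135 listed genes in red and the 4 gene IDs of lowest p without a symbol as blue squares. 23 genes lie beyond the axes at 4. The grey cloud shows no common axis, the listed genes lie in the quadrants of equal sign, and ENSBTAG00000001865 lies at -1.99 in pregnant and 0.56 in non-pregnant cows.

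Whether the ECP difference itself differed between pregnant and non-pregnant cows was tested as an interaction in all 12 cows. edgeR called 0 genes (0%), with a lowest adjusted p of 0.301. At an unadjusted p under 0.05 it gave 800 genes (5.28%), beside the 758 that a uniform spread of p-values gives. Of these 800, 741 had opposite signs in the pregnant and the non-pregnant cows, which choosing genes by a large difference favours. DESeq2 called 15 and limma voom 0, with 709 genes at an unadjusted p under 0.05. ENSBTAG00000001865 was among the lowest. Its non-pregnant cows had 426, 227 and 313 normalized counts in ECP, against 242, 214 and 198 in CON (log2 fold change 0.56, SE 0.31), and the difference between statuses was -2.55 (SE 0.45, edgeR adjusted p = 0.301). Thus the low values of this gene ID were found in the pregnant ECP cows and in no other group. Its choice by lowest p in the pregnant cows favours such a contrast. For ENSBTAG00000015044, chosen in the same way, the non-pregnant values were 469.7, 623 and 494 in ECP, against 570.0, 714 and 699 in CON (log2 fold change -0.32, SE 0.20). Of the 30 unlisted genes called by DESeq2 in the pregnant cows, 16 had the same sign in the non-pregnant cows, with a median absolute log2 fold change of 0.86 in pregnant and 0.14 in non-pregnant cows, and 29 had an unadjusted p under 0.05 for the difference. Of the 10 listed, all 10 had the same sign and none such a p, with medians of 0.92 and 0.51. Both groups of genes were chosen for their values in the pregnant cows, so larger values there are partly set by the choice. The listed 10 were also chosen by the study on both sets of cows together. That choice favours the same sign and disfavours a difference between statuses, and it left the 30 unlisted genes out. The contrast between the 10 and the 30 is therefore partly set in advance.

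Among the listed genes only CRYM and UPK3BL had an unadjusted p under 0.05 for the difference between statuses, where 5.28% of all genes did. The study chose the listed genes on both sets of cows together, which disfavours such a difference in them. CRYM, a cytosolic protein that binds thyroid hormone, had 30.8, 37.6 and 45.3 normalized counts in pregnant ECP cows, against 51.8, 52.9 and 57.5 in pregnant CON cows (log2 fold change -0.50, SE 0.38). In non-pregnant cows it had 30.3, 29.0 and 11.6 in ECP, against 121, 57.8 and 98.8 in CON (-1.95, SE 0.39). The non-pregnant CON cows were the highest group and the non-pregnant ECP cows the lowest (difference 1.45, SE 0.54, unadjusted p = 0.0204 from edgeR). UPK3BL, a uroplakin-like membrane protein, had 187, 238 and 121 in pregnant ECP cows, against 218, 409 and 265 in pregnant CON cows (-0.71, SE 0.43), and 86.1, 73.7 and 100.02 in non-pregnant ECP cows, against 217, 762 and 274 in non-pregnant CON cows (-2.27, SE 0.46). Here the non-pregnant ECP cows were the low ones (difference 1.56, SE 0.62, unadjusted p = 0.0275 from edgeR). PAQR8 had a log2 fold change of 0.53 in pregnant and 1.42 (SE 0.32) in non-pregnant cows, where it had 505, 471 and 937 in ECP, against 265, 244 and 206 in CON (difference -0.89, SE 0.45). The signalling gene SIPA1L2 (0.28 in pregnant, 0.68 in non-pregnant cows), CAMK1 (-0.30 and -0.71) and RPL39 (-0.64 and -0.24) completed the 6 symbols of lowest p for the difference. None passed edgeR's test after adjustment. S100G, with 1.03 in pregnant and 1.04 in non-pregnant cows (difference -0.01, SE 0.39), had almost the same fold change in both.

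**Figure D5:**
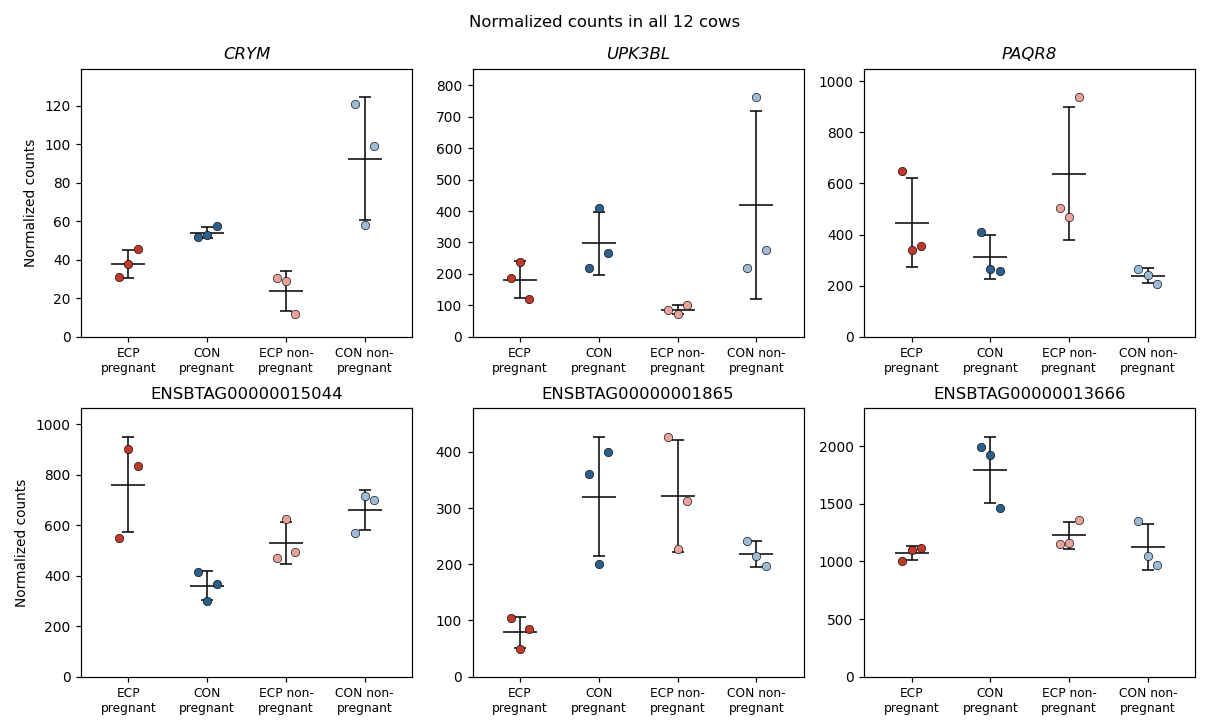
Normalized counts of 6 gene IDs in pregnant ECP, pregnant CON, non-pregnant ECP and non-pregnant CON cows, 3 points per group with the mean and SD as bars and axes from 0. CRYM and UPK3BL differ more between ECP and CON in the non-pregnant cows, while for ENSBTAG00000015044, ENSBTAG00000001865 and ENSBTAG00000013666 the groups are apart in the pregnant cows and overlap in the non-pregnant ones. The gene IDs without a symbol were chosen for low p in the pregnant cows, the symbols for low p of the difference between statuses. Both choices favour such contrasts.

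Single cows and the mapping class moved with these values. E1010, the 1 lower mapping library in ECP, was the ECP cow nearest to CON for 57 of the 135 listed genes (42.2%, beside 37.2% of all genes), and E0040 was the CON cow nearest to ECP for 56 (41.5%, beside 28.4% of all genes). The listed genes were chosen for a difference over the 12 cows, these 6 among them, which favours a kept direction in what follows. All 135 listed genes kept their direction without any 1 of the 6 cows, beside 53.3% of all genes. Within the higher mapping libraries (2 ECP against 1 CON) 134 kept it, and within the lower (1 ECP against 2 CON) 132, beside 74.9% and 69.0% of all genes. Among the symbols named here, the exceptions in the lower mapping libraries were KRT9, HIPK1 and SNTB1. Fold changes were larger within the higher than within the lower mapping libraries for 87 listed genes (64.4%), beside 56.8% of all genes. For CLIC5 the log2 fold change was 1.58 within the higher and 0.21 within the lower libraries, for PM20D1 1.89 and 0.30, and for CDA 2.40 and 1.28, while for S100G (1.01 and 0.97), ALOX5 (-0.67 and -0.68) and RPS2 (-0.37 and -0.34) both classes gave the same size. Within the pregnant cows a class holds 1 cow of a treatment and cannot be told apart from that cow. Over all 12 cows, with 6 higher and 6 lower libraries, the class could be entered as a term. With it edgeR called 0 genes in the pregnant comparison, all 101 gene IDs examined singly kept their direction, and the log2 fold changes were 0.98 for CLIC5, 1.18 for PM20D1, 1.71 for CDA, 0.95 for S100G and 2.07 for KRT9.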

How the data were processed

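RNA of 12 biopsies was made into TruSeq libraries and sequenced, and the strand setting of the counting was not given in the sources used here. After trimming, the authors used Bowtie2 2.1.0 and the masked bovine assembly UMD 3.1 for mapping, sorted alignments with SAMtools 0.1.18 and counted reads with HTSeq 0.5.4p2, the versions being those of the submitters' processing notes. They deposited raw counts for 24616 Ensembl gene IDs in 12 libraries, not normalized, with 0 rows that name no gene. Uniquely mapped reads were used, so genes with near-identical or overlapping copies are uncertain. Groups and P4 were taken from the labels, and the mapping class from the supplement of the study.

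Tests used edgeR 4.0.16 (TMM, quasi-likelihood) in R 4.3.3 on all 12 cows with 4 group means, 8 residual degrees of freedom, and genes with a mean normalized count above 5 (DESeq2 size factors). The contrast used the 6 pregnant cows only. Each SE is the absolute log2 fold change over the root of the F statistic. P-values were adjusted by Benjamini-Hochberg across the 15161 genes, at the study's threshold of 0.10. DESeq2 1.42.0 and limma 3.58.1 voom were alternatives, beside scaling, filters, covariates, mapping classes and each cow left out. P4 was tested with scipy 1.17.1, and figures were drawn with matplotlib 3.10.9 in Python 3.11.15. Scripts were tested on simulated data, on which DESeq2 exceeded the share of false calls that its threshold allows.

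Each library came from a different cow. The 3 cows per group limit the precision of every value, and counting error adds to it for genes of low counts such as MYL3 and C7H19orf77. Symbols came from the study's gene table, and the reference at hand holds no Ensembl IDs, so coordinates, sequences and gene lengths are not used here and levels are not compared between genes. Named were the 8 symbols of lowest p and the 8 of largest non-overlapping fold change in each direction, the 6 of lowest p for the difference between statuses, up to 4 members of each role list, and the 2 unnamed gene IDs of lowest p in each direction. KRT9 is named as a member of its list. One gene is not reported here. The members and the role lists were chosen with earlier results of these data known.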

Additional observations from a re-analysis of the deposited data

How the results depend on the processing

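In the pregnant cows, the count of 0 genes called by edgeR was also 0 with limma voom, other scaling, other filters, mapping class or P4 in the model, only the 6 cows in the fit, a threshold of 0.05, the lower mapping libraries alone, and without any single cow (0 to 0, lowest adjusted p 0.111 without E0406). It was 40 with DESeq2, which made too many false calls on simulated counts of this design, 43 with DESeq2's own filtering, and 3 within the higher mapping libraries, all lower in ECP and without a symbol. For the difference between pregnant and non-pregnant cows it was 15 with DESeq2, with or without its own filtering, and 0 to 1 with a cow left out, the 1 being ENSBTAG00000023600 without E0040 and again without E0819. In the non-pregnant cows DESeq2 called 59 genes and the fit of those 6 cows alone 1, the same ENSBTAG00000023600; both alternatives were chosen after seeing the data. Non-overlapping genes numbered 2809 to 3551 with a pregnant cow left out, since fewer cows overlap less. The median absolute log2 fold change was 0.19 to 0.22. The share with the same direction in non-pregnant cows was 44.2% to 79.8% with a cow left out and 25% of 4 genes chosen at p of at most 0.001. Of 1918 fold changes of the 101 named gene IDs under alternatives, 1902 kept their direction and side of the threshold, 13 passed, all with DESeq2, and 3 reversed, all within the lower mapping libraries: HIPK1 at -0.014, SNTB1 at -0.22 and KRT9 at -0.062. The cause of these shifts was not tested. All 101 gene IDs were chosen on data that include these cows, which favours a kept direction. No paired analysis was possible because the labels give the cows no shared replicate numbers. With 3 cows per group and a biological coefficient of variation of 0.267, small differences could not be called, and a gene that missed the threshold is not shown to be alike in ECP and CON.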
